A study of Mus musculus with 7 samples.

Results

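The 6 genes that flank *Lhx6* on mouse chromosome 2 were examined, namely *Dab2ip*, *Ttll11*, *Ndufa8*, *Morn5*, *Rbm18* and *Mrrf*. They were chosen by their position beside *Lhx6* in the deposited exon annotation, and all 6 were found among the 47729 genes of the count table. RNA had been sequenced from the forebrain of mice at postnatal day 15 in 4 Lhx6+/- (control) and 3 Lhx6-/- (mutant) samples, each pooled from 2 animals of a F1(C57BL/6 X 129Sv) strain. Control and mutant mice both carried the Lhx6tm2Vpa allele, on 1 chromosome in controls and on both in mutants, and no wild-type sample was analysed here. Because the genes around *Lhx6* are inherited together with its mutant allele, an effect of losing *Lhx6* and an effect of the linked chromosome segment cannot be told apart in this design. Each library held between 32556304 and 38069151 expected read counts, and the column names give a genotype and a library number (2, 3, 10 and 11 for controls, 5, 12 and 13 for mutants). Of the 6 genes, 5 had enough reads to be tested. None passed the test for a difference between genotypes at an adjusted p of 0.05, which 4.85% of all tested genes passed. *Lhx6* in their midst fell to 13.6% of its control level.

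*Lhx6* encodes a LIM-homeodomain transcription factor of interneurons that arise in the medial ganglionic eminence. Genes that lie side by side on a chromosome need not share a function, and the neighbours of *Lhx6* have roles of their own that are not limited to interneurons. *Dab2ip* encodes a Ras GTPase-activating scaffold protein, *Ttll11* an enzyme that adds glutamate chains to tubulin, *Ndufa8* an accessory subunit of mitochondrial complex I and *Mrrf* the factor that recycles mitochondrial ribosomes after translation. *Rbm18* encodes a protein with an RNA recognition motif and *Morn5* a protein with MORN repeats.

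In GRCm38 the genes lie in the order *Dab2ip*, *Ttll11*, *Ndufa8*, *Morn5*, *Lhx6*, *Rbm18*, *Mrrf*. *Dab2ip* spans 35558266 to 35730994 on the plus strand of chromosome 2, and *Ttll11* follows on the minus strand from 35751241 to 35979913, 102039 bases from *Lhx6*. *Ndufa8* lies on the minus strand from 36036326 to 36049406 and *Morn5* on the plus strand from 36049458 to 36079718. *Morn5* ends 2234 bases from *Lhx6*, which is read towards it from the minus strand (36081953 to 36105408). On the other side, *Rbm18* lies on the minus strand from 36116079 to 36136773, 10670 bases from *Lhx6*, and *Mrrf* on the plus strand from 36136389 to 36190647. *Ndufa8* and *Morn5* stand head to head, as do *Rbm18* and *Mrrf*. The starts of *Rbm18* and *Mrrf* overlap by 385 bases, all of them exonic in both genes, and the starts of *Ndufa8* and *Morn5* are separated by 51 bases.

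The 51 bases between the starts of *Ndufa8* and *Morn5* are shown because they are the whole of the DNA between these divergent genes in the deposited exon annotation. RefSeq places the starts further apart, at 36049338 for *Ndufa8* and 36049473 for *Morn5*. The 51 bases are given on the plus strand, towards *Morn5*, at chr2:36049407-36049457 of GRCm38. Their sequence is from the RefSeq promoter windows of that build. Capitals mark GGGCGG, the GC box.

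Ndufa8-Morn5 gap: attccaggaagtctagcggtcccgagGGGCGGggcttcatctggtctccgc

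The stretch is 64.7% G and C and holds 4 CpG dinucleotides. RefSeq windows were found for 5 of the 6 genes, 8 windows in all, and *Ttll11* had no entry. In the 250 bases before the RefSeq start, GGGCGG (either strand) was present for *Ndufa8*, *Morn5* and *Rbm18* and in 3 of the 4 *Dab2ip* windows, and absent for *Mrrf*; 32.7% of all 32851 windows held it. CCAAT (either strand) was found for *Mrrf* and in 3 of the *Dab2ip* windows, against 33.8% of all windows. TATAAA and TAATTA, again on either strand, were in none of the 8 windows, against 12.4% and 4.84% of all windows. The *Ndufa8* and *Morn5* windows held 17 and 23 CpG dinucleotides and those of *Mrrf* and *Rbm18* held 10 and 11, where the median of all windows was 6. The 4 *Dab2ip* windows held 10, 21, 17 and 4. The *Ndufa8* and *Morn5* windows share 234 bases, so their CpG dinucleotides and their GGGCGG are in large part the same ones.

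*Lhx6* was read first, as the targeted gene. Its normalised read count (the count scaled to a common library size by edgeR's TMM method) lay between 476 and 615 in the 4 control libraries and between 70.1 and 76.6 in the 3 mutant libraries. The groups did not overlap, and the log2 fold change was -2.88 (95% interval -3.19 to -2.57, Benjamini-Hochberg adjusted p = 5.99e-05 by the quasi-likelihood test of edgeR). Across the forebrain transcriptome, 954 of 19684 tested genes (4.85%) passed this test at an adjusted p of 0.05, 2.97% as higher and 1.87% as lower in mutants, and such genes are referred to as called. The neighbours are read against that share. None of the 5 tested neighbours was called by edgeR, none had an unadjusted p of 0.05 or less (18.2% of all tested genes had), and DESeq2 and limma-voom called none (0 each), although DESeq2 called 8.8% of all tested genes. For none of the 5 did the 3 mutant libraries lie wholly above or below the 4 control libraries, which was so for 19.7% of tested genes. Their log2 fold changes ran from -0.16 to 0.062 with a median of -0.083, beside a median of -0.013 over all tested genes, and each of the 5 was smaller in size than the median size over all tested genes, 0.17.

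**Figure D1:**
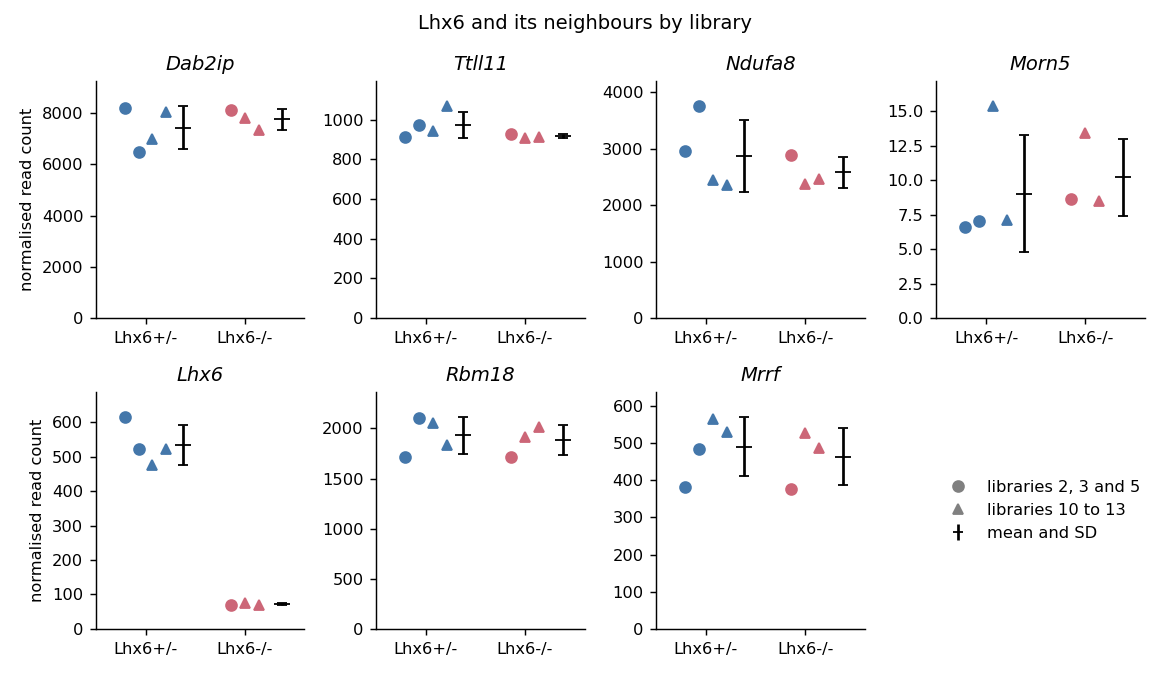
Normalised read count (vertical axis, from 0) of Lhx6 and its 6 neighbours in each library, with Lhx6+/- in blue and Lhx6-/- in red, circles for libraries 2, 3 and 5, triangles for libraries 10 to 13, and black bars for the mean and SD. The mutant libraries lie between 70.1 and 76.6 for Lhx6, far below its controls, and within or across the range of the controls for every neighbour.

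On the side of *Lhx6* with lower coordinates, *Dab2ip* (ENSMUSG00000026883) had the most reads. It had 8192, 6495, 6999 and 8052 normalised counts in the controls (here and for each gene in the order of libraries 2, 3, 10 and 11) and 8129, 7819 and 7331 in the mutants (libraries 5, 12 and 13). All 3 mutant libraries lay inside the control range. The means were 7435 ± 822 (SD, n = 4 pools) in controls and 7759 ± 402 (SD, n = 3 pools) in mutants, which is a difference of 0.062 on the log2 scale (SE 0.102; edgeR, adjusted p = 0.827). The 95% interval of the difference ran from 0.888-fold to 1.23-fold. Of its exon bases, 4.15% overlap the antisense transcript *Gm13446*, which itself had 195 ± 15.9 normalised counts in controls and 205 ± 21.0 in mutants.

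*Ttll11* (ENSMUSG00000026885) had 910, 974, 943 and 1066 normalised counts in the controls. The mutants had 929, 907 and 914. Mutant library 12 lay just under the lowest control and the other mutants inside the control range. With means of 973 ± 67.1 (SD, n = 4 pools) and 917 ± 11.5 (SD, n = 3 pools), the log2 difference was -0.087 (SE 0.0829; edgeR, adjusted p = 0.669), with an interval from 0.826-fold to 1.07-fold. *Ttll11* shared none of its exon bases and none (0%) of its 36-base stretches, the length of a read, with another gene, so its reads were the least open to misassignment together with those of *Ndufa8* and *Morn5*, which also shared none.

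*Ndufa8* (ENSMUSG00000026895) varied most among controls of the 5 tested genes. The controls had 2962, 3746, 2449 and 2352 normalised counts and the mutants 2888, 2374 and 2470. Control library 3 stood highest and all mutant libraries fell inside the control range. Means were 2877 ± 638 (SD, n = 4 pools) and 2578 ± 273 (SD, n = 3 pools), and the difference of -0.16 on the log2 scale (SE 0.163; edgeR, adjusted p = 0.695) had an interval from 0.693-fold to 1.16-fold, the widest downward among the 5 genes. Without control library 3 the log2 fold change was -0.0062.

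*Morn5* (ENSMUSG00000026894), the protein-coding gene nearest to *Lhx6*, was hardly detected. Its normalised count was 6.58, 7.03, 15.4 and 7.12 in the controls and 8.62, 13.5 and 8.52 in the mutants. Control library 10 was the highest of the 7 and the genotypes overlapped. Only 2 libraries reached 10 counts, so *Morn5* did not enter the test. An exact two-sided permutation test of its normalised count over the 35 ways to choose the mutant libraries gave p = 0.6 (the smallest p this design allows is 0.0286), and edgeR without a filter gave a log2 fold change of 0.17 (adjusted p = 0.931). At between 6 and 16 reads a library, a moderate change of *Morn5* was not detectable at this depth.

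On the far side of *Lhx6*, *Rbm18* (ENSMUSG00000026889) had 1716, 2104, 2057 and 1839 normalised counts in the controls. The mutants had 1716, 1915 and 2010. The lowest control and the lowest mutant library were level, and the other mutants lay between controls. The means of 1929 ± 183 (SD, n = 4 pools) and 1880 ± 150 (SD, n = 3 pools) gave the smallest change of the 5, -0.037 on the log2 scale (SE 0.0972; edgeR, adjusted p = 0.899), with an interval from 0.836-fold to 1.14-fold. The sign turned without control library 3 (0.0083) and without mutant library 5 (0.035).

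*Mrrf* (ENSMUSG00000026887) had 383, 484, 565 and 531 normalised counts in the controls and 377, 526 and 487 in the mutants. Control library 2 and mutant library 5 were both low, and the genotypes overlapped. Its means were 491 ± 79.2 (SD, n = 4 pools) and 463 ± 76.9 (SD, n = 3 pools), a log2 difference of -0.083 (SE 0.166; edgeR, adjusted p = 0.859). The interval ran from 0.726-fold to 1.23-fold, and without mutant library 5 the log2 fold change was 0.055. In the assignment of reads to genes, *Mrrf* is the least certain of the 6, since 15.1% of its exon bases overlap *Rbm18* or *Gm13428* on the opposite strand and 18.7% of the 36-base stretches in its transcripts, the length of a read, are found elsewhere among genes. Whether the counting used strand is not given in the sources used here, so reads from the overlap of *Rbm18* and *Mrrf* cannot be told apart.

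**Figure D2:**
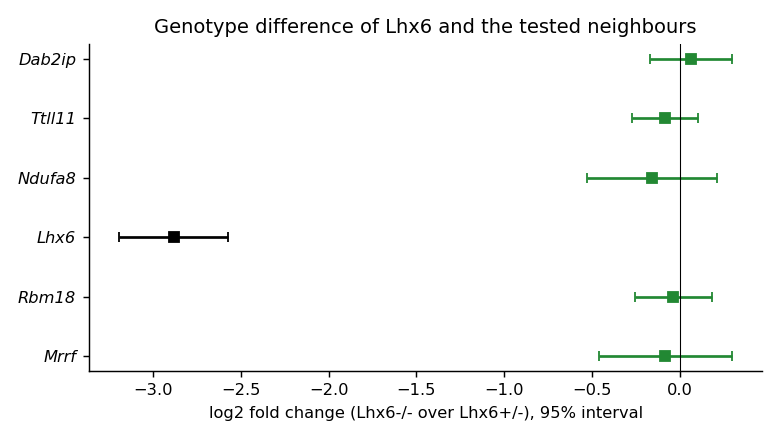
Log2 fold change of Lhx6-/- over Lhx6+/- (horizontal axis) for Lhx6 in black and the 5 tested neighbours in green, with bars for the 95% interval from edgeR's quasi-likelihood fit. The 5 neighbours have intervals that include 0, and the interval of Lhx6, -3.19 to -2.57, lies far from all of them.

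A p-value that misses the threshold does not show that a gene is unchanged, so the intervals give the range of changes that fits these libraries. All 5 intervals lay inside a 1.5-fold change in either direction. The largest decrease they allow is to 0.693-fold, for *Ndufa8*, and the largest increase is to 1.23-fold, for *Dab2ip* and *Mrrf*. For *Lhx6* the interval was 0.110-fold to 0.168-fold.

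The neighbours differed far more from one another than between genotypes. On the scale of CPM (counts scaled to a fixed library total) per kilobase of merged exon, on which genes can be compared, *Ndufa8* was highest at 93.8 ± 20.8 in controls and 84 ± 8.90 in mutants, and 97.6% of tested genes had a lower control level. *Dab2ip* followed at 24.9 ± 2.76 CPM per kilobase in controls and 26.0 ± 1.35 in mutants, then *Rbm18* at 9.28 ± 0.880 and 9.04 ± 0.723 and *Ttll11* at 6.79 ± 0.468 and 6.39 ± 0.0803. *Mrrf* had a level of 2.77 ± 0.447 in controls and 2.62 ± 0.434 in mutants, and *Morn5* of 0.354 ± 0.166 and 0.401 ± 0.111 (SD, n = 4 and 3 pools throughout). No neighbours in this order overlapped among control libraries, with the exception of *Lhx6* itself, whose control level of 3.12 ± 0.341 lay across that of *Mrrf*. In mutants, the level of *Lhx6* was 0.424 ± 0.0208, inside the range of *Morn5* (0.335 to 0.529).

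**Figure D3:**
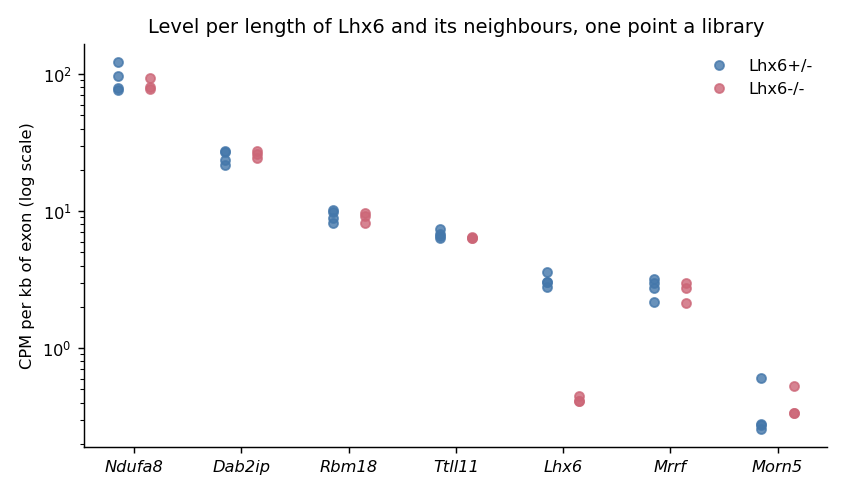
CPM per kilobase of exon (vertical axis, log scale) of Lhx6 and its neighbours, ordered by control level, with 1 point a library, Lhx6+/- in blue and Lhx6-/- in red. Both genotypes give the same order of the 6 neighbours from Ndufa8 to Morn5, and Lhx6 drops from the level of Mrrf to that of Morn5.

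The head-to-head pairs differed in how unequal their members were. Across the 51 bases printed above, the level per kilobase of *Ndufa8* was 265-fold that of *Morn5* in the control means and 210-fold in the mutant means. In single libraries this ratio ran from 132 in control library 10 to 442 in control library 3, and the mutants lay between, at 146 to 278. *Rbm18* and *Mrrf*, whose first exons overlap, were closer in level. *Rbm18* stood at 3.35-fold the level of *Mrrf* in the control means and 3.46-fold in the mutant means, and between 2.95-fold and 3.87-fold in single libraries. In both pairs the mutant and control ratios overlapped.

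Levels of *Ndufa8* and *Mrrf* overlapped between genotypes but not between the lower and the higher library numbers. *Ndufa8* lay between 2888 and 3746 normalised counts in libraries 2, 3 and 5 and between 2352 and 2470 in libraries 10 to 13, without overlap. *Mrrf* went the other way, with 377 to 484 in libraries 2, 3 and 5 and 487 to 565 in libraries 10 to 13. Its gap was narrow, between 484 in control library 3 and 487 in mutant library 13. Both runs of numbers contain both genotypes, and the labels do not say what a library number stands for. Among all tested genes, these runs did not overlap for 23%, and the 2 of 5 neighbours are given as a description, with no test. *Dab2ip*, *Ttll11* and *Rbm18* overlapped between the runs. The first principal component of log2 CPM, with 39.6% of the variance, set the same libraries apart.

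Within the runs, the genotype difference of the neighbours stayed small. In libraries 10 to 13 alone, the log2 fold changes were 0.020 for *Dab2ip*, -0.13 for *Ttll11*, 0.024 for *Ndufa8*, 0.022 for *Rbm18* and -0.10 for *Mrrf*, with adjusted p-values from edgeR between 0.382 and 0.918. In libraries 2, 3 and 5, where the single mutant library allows no test, they were 0.16, -0.011, -0.21, -0.15 and -0.19 in the same order. With the run as a covariate, edgeR called 11.2% of all tested genes (6.16% higher and 5.04% lower in mutants) and none (0) of the neighbours, whose unadjusted p-values then ran from 0.182 for *Mrrf* to 0.55 for *Rbm18*.

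**Figure D4:**
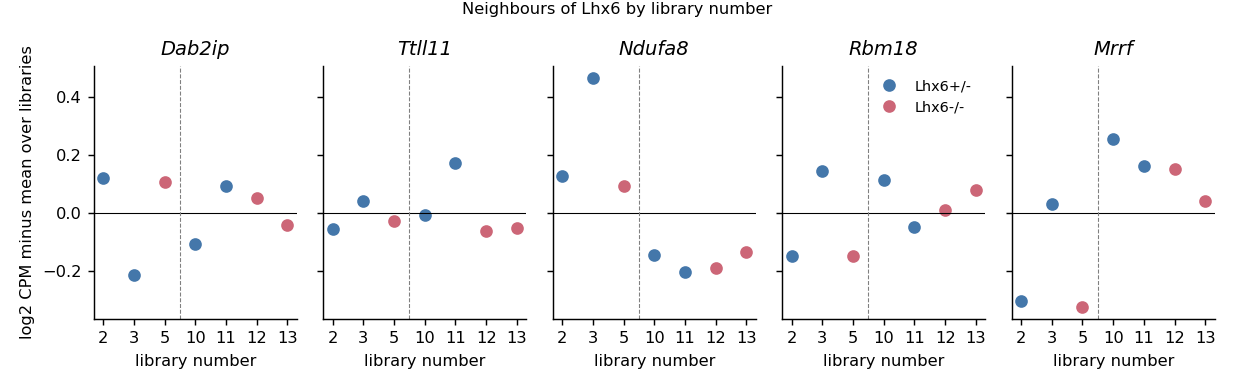
Log2 CPM of the 5 tested neighbours minus each gene's mean over the 7 libraries (vertical axis), by library number (horizontal axis), with Lhx6+/- in blue, Lhx6-/- in red and a dashed line between the runs of numbers. Ndufa8 is above its mean in libraries 2, 3 and 5 and below it in libraries 10 to 13, Mrrf is lowest in libraries 2 and 5, and the colours are mixed in every panel.

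The neighbourhood was then widened. Within 1 Mb of *Lhx6* on either side the table holds 70 other genes, of which 39 are protein coding. Olfactory receptor genes and pseudogenes (*Olfr*) make up 31 of the 70, with at most 1 count in any library. The 16 tested genes were the 5 neighbours and 11 more. EdgeR called none of the 16, 4 (25%, against 18.2% of all tested genes) had an unadjusted p of 0.05 or less, limma-voom called none (0) and DESeq2 called 1. Their median log2 fold change was -0.074, and for 4 of them (25%, against 19.7% of all tested genes) the genotypes did not overlap. The 5 neighbours added to neither count. Among the 11 other genes, 4 had an unadjusted p of 0.05 or less, and for 4 (36.4%) the genotypes did not overlap. *Ptgs1* and *Gsn* are described next because an alternative fit called them, and they were chosen after their values were seen.

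*Ptgs1*, which encodes the prostaglandin-forming enzyme cyclooxygenase-1, is the next tested gene beyond *Mrrf*, at 36230426 to 36252272, 125 kb from *Lhx6*. It had 429.9, 489, 521 and 552 normalised counts in the controls and 660.0, 707 and 644 in the mutants. Every mutant library lay above every control. The log2 difference of 0.43 (SE 0.110) missed the threshold (adjusted p = 0.0668 from edgeR) and passed it with DESeq2 (adjusted p = 0.0095) and with the run as a covariate in edgeR (log2 fold change 0.41, adjusted p = 0.0213). *Gm43621* lies within the span of *Ptgs1* on the opposite strand. Whether they share exon bases was not tested, so reads of either may have been counted for the other. On the other side, *Gsn*, which encodes the actin-severing protein gelsolin, had 6030 ± 1040 normalised counts in controls and 4520 ± 783 in mutants (SD, n = 4 and 3 pools; log2 fold change -0.42, adjusted p = 0.216 from edgeR), and with the run as a covariate edgeR called it lower (-0.49, adjusted p = 0.0049).

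In the fit to all 7 libraries without the run as a covariate, the gene nearest to *Lhx6* that edgeR called was *Gpr21*, 1.41 Mb away. Within libraries 10 to 13 alone, edgeR put the nearer *Ptgs1* and *Gsn* below the threshold (adjusted p = 0.0485 and 0.00692). The counts that follow are from the fit to all 7 libraries. Within 5 Mb, 6 of 119 tested genes (5.04%) were called, beside 4.85% of all tested genes. The 3 that rose were *Gpr21* (log2 fold change 0.75), *Crb2* (0.88) and *Hmcn2* (2.29). *Zbtb34* (-0.45), *Lhx2* (-0.33) and *Fibcd1* (-1.42) fell. *Lhx2*, another LIM-homeodomain gene, lies 2.23 Mb from *Lhx6* and went from 2910 ± 81.4 to 2310 ± 147 normalised counts (SD, n = 4 and 3 pools; adjusted p = 0.0368 from edgeR). These 6 genes were named after their values were seen. Within 10 Mb the share was 3.36% (8 of 238), and on the rest of chromosome 2 beyond 1 Mb it was 4.5%.

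**Figure D5:**
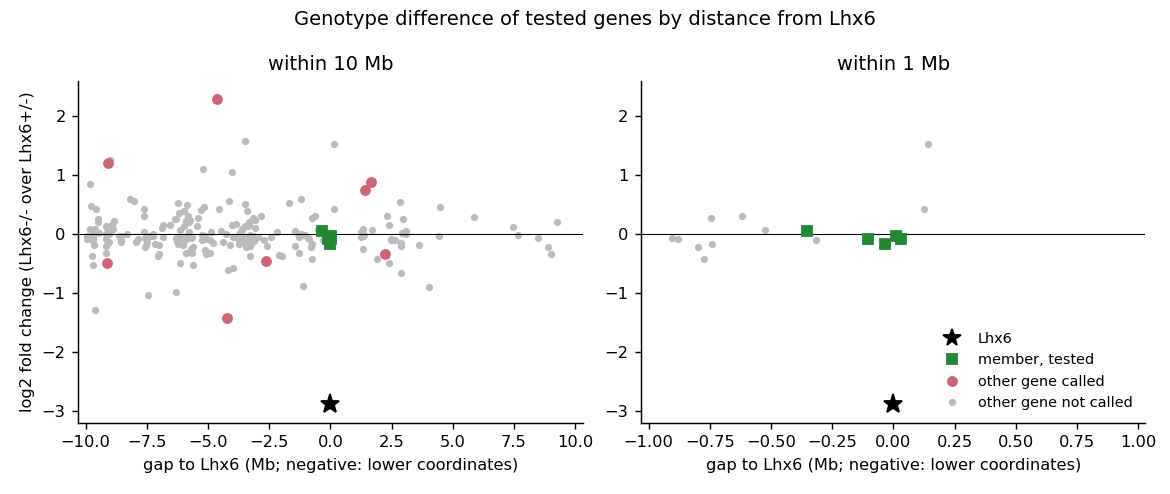
Log2 fold change of Lhx6-/- over Lhx6+/- (vertical axis) against the gap to Lhx6 in Mb (horizontal axis, negative at lower coordinates) for the tested genes within 10 Mb (left) and 1 Mb (right), with a star for Lhx6, green squares for its tested neighbours, red points for other called genes and grey points for the rest. The neighbours lie between -0.16 and 0.062 around the star at -2.88, and the nearest red point (edgeR on all 7 libraries with no covariate) is at 1.41 Mb.

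Genes that work with the neighbours were described from lists. Among 36 subunits of complex I, the partners of *Ndufa8* in the respiratory chain, edgeR called none (4.85% of all tested genes), 1 had an unadjusted p of 0.05 or less (2.78%, against 18.2% of all tested genes), and DESeq2 (8.8% of all) and limma-voom called none (0 each). Their median log2 fold change was -0.035, and they ran from -0.20 to 0.13. Their summed level was 2190 to 2780 CPM in controls and 2290 to 2490 in mutants. Some subunits also split by library number. For 15 of the 36 (41.7%, against 23% of all tested genes) libraries 2, 3 and 5 did not overlap libraries 10 to 13, and the other subunits overlapped. Of these 15, 13 were higher in libraries 2, 3 and 5, *Ndufa8* among them, and 2 were lower. The median log2 ratio of libraries 2, 3 and 5 over 10 to 13 was 0.128 for the 36 subunits. That difference was not tested.

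Of the 11 factors of mitochondrial translation, the partners of *Mrrf*, edgeR called none, beside 4.85% of all tested genes. Neither DESeq2 (8.8% of all) nor limma-voom called any (0 each). An unadjusted p of 0.05 or less was found for 1, against 18.2% of all tested genes. It was *Mtrf1l*, a release factor named after its value was seen (log2 fold change -0.43, adjusted p = 0.129 from edgeR). The median of the 11 values was -0.13, and 8 of the 11 were negative. Among 12 tested tubulin tyrosine ligase-like enzymes, the family of *Ttll11*, the same tools called none (0 each, beside 4.85% of all tested genes for edgeR and 8.8% for DESeq2). An unadjusted p of 0.05 or less was found for 1 (18.2% of all tested genes). It was *Ttll8* (0.53, adjusted p = 0.181 from edgeR), likewise named after its value was seen. The median of that family was -0.067. Of the carboxypeptidases that trim glutamate chains from tubulin, none of 5 tested was called by any of the 3 tools. At a share of 4.85% of all tested genes for edgeR, a count of 0 among 5 says little. An unadjusted p of 0.05 or less was found for 1 (18.2% of all tested genes), and the median was 0.026.

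Of 10 Ras GTPase-activating proteins, the class of *Dab2ip*, edgeR called 2 (20%, against 4.85% of all tested genes), 1 in each direction. *Rasal1* fell from 3803 ± 426 to 2316 ± 177 normalised counts (SD, n = 4 and 3 pools; log2 fold change -0.72, adjusted p = 0.00752 from edgeR) and *Rasa4* rose from 177 ± 28.5 to 391 ± 59.0 (1.14, adjusted p = 0.00679 from edgeR). The median over the 10 was 0.071. Of the MORN repeat genes, 3 were tested, too few for a count of 0 to say much. None was called (0 by edgeR, DESeq2 and limma-voom) and 0 had an unadjusted p of 0.05 or less (18.2% of all tested genes). The values were 0.30 for *Morn1*, 0.10 for *Morn2* and -0.19 for *Morn4*.

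For each tested neighbour, the 3 genes with the most similar pattern were found by the root mean square difference of log2 CPM, centred on each gene's mean, over the 7 libraries. They were *Zcchc14*, *Phf12* and *Ski* for *Dab2ip* (differences of 0.028 to 0.036, where *Dab2ip* itself varied by 0.118 about its mean). For *Ttll11* they were *Dennd6b*, *Pllp* and *Gfer* (0.022 to 0.040, own variation 0.0769), and for *Ndufa8* they were *Acadm*, *Med18* and *Bcas2* (0.033 to 0.037, own variation 0.227). For *Rbm18* they were *Ube2d3*, *Stx12* and *Gtf2a1* (0.024 to 0.028, own variation 0.111), and for *Mrrf* they were *Slc35g2*, *Tmem263* and *Serinc1* (0.030 to 0.038, own variation 0.212). None of the 15 lies on chromosome 2. These matches were picked from 19684 tested genes over only 7 libraries, whose depth all genes share, and no test was made.

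The tissue label was checked against marker genes. The 6 markers of forebrain neurons summed to 3540 to 3750 CPM in controls and 3840 to 4530 in mutants, with none called. Of these, 5 had positive log2 fold changes and *Snap25* a negative one (-0.23, adjusted p = 0.269 from edgeR). The 2 markers of cerebellum summed to 0.485 to 1.13 and 0.494 to 0.995, with *Gabra6* at 0 in all mutants. Astrocyte markers (4) summed to 1030 to 1150 CPM in controls and 1610 to 1850 in mutants, with *Gfap* called higher. *Gfap* carried most of that rise, from 6537 to 25200 normalised counts. *Aqp4* rose from 4794 to 7195 with no overlap between genotypes (log2 fold change 0.59). It missed the threshold (adjusted p = 0.0716 from edgeR) and passed it with the run as a covariate (adjusted p = 0.03). *Aldh1l1* (log2 fold change 0.099) and *Slc1a3* (0.12) were not called. Oligodendrocyte markers (3) summed to 4920 to 6460 and 3550 to 4420, with *Mbp* called lower. Those of endothelium (2) summed to 61.4 to 85.5 and 87.3 to 103 CPM, and those of ependyma and motile cilia (5) to 15.2 to 16.5 and 12.9 to 14.8, with *Dnah5* called lower. *Dnah5* accounted for most of that fall, from 201 to 129 normalised counts. *Ccdc153* (log2 fold change -0.29) and *Rsph1* (-0.25) had negative values and were not called, while *Foxj1* (0.082) and *Tmem212* (0.072) had positive values. Microglia (3; 181 to 202 and 161 to 196 CPM), choroid plexus (4; 128 to 272 and 62.3 to 210 CPM) and thalamus (2; 25.2 to 33.9 and 22.9 to 28.6 CPM) overlapped between genotypes, with no marker called. The part of these shifts in the levels of the neighbours was not tested, and in RNA from whole forebrain fewer cells of a type and less RNA per cell cannot be told apart.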

How the data were processed

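Forebrain RNA of 4 Lhx6+/- and 3 Lhx6-/- pools was read as 36-base single ends. The authors trimmed reads with CutAdapt (1.9.1), aligned them with Bowtie2 (2.2.9) to the Ensembl release 84 transcriptome of GRCm38 and deposited expected counts per gene from RSEM (1.2.31), without normalization; versions are from the submitters' processing notes. RSEM splits a read between the transcripts it fits, and between 32.9% and 36.0% of values were not whole. The authors also deposited an exon annotation, used for positions and exon lengths, and a DESeq2 comparison with fold changes and p-values, of which only the gene symbols were used. RNA integrity numbers ran from 9 to 10, but columns carry no replicate number, so they were not assigned to libraries.

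Expected counts were rounded, and genes reaching 10 counts in 3 or more libraries were compared between genotypes over the whole table with edgeR 4.0.16 (TMM, quasi-likelihood F-test, two-sided, Benjamini-Hochberg, threshold 0.05) in R 4.3.3. Standard errors (SE) were derived from F and the log2 fold change, and 95% intervals use its degrees of freedom. TMM factors ran from 0.976 to 1.03. DESeq2 1.42.0 and limma 3.58.1 (voom) were alternatives, beside other scalings, filters, unrounded counts, the run of library numbers and leaving out each library. The 36-base stretches shared between genes were counted on both strands in GENCODE M21 transcripts of GRCm38. Libraries of a genotype differed by a chi-square per degree of freedom of 9.36 to 65.9, more than sampling noise, and each was 1 replicate. Per-sample columns not used numbered 0. The genes named were the 6 neighbours, *Lhx6*, any gene called within 1 Mb (none was) or in the partner lists, the markers and the closest patterns; the others were named after their values were seen. The members and lists were chosen with earlier results of these data known.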

Additional observations from a re-analysis of the deposited data

Results flagged for a closer look

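Among the 4 control libraries, the *Morn5* count of library 10 stood apart, with 15.4 normalised counts against 6.58 to 7.12 in the other 3, a gap of 0.939 of the group's range which is above Dixon's 95% limit for 4 samples. Chance flags about 1 in 20 groups, and the other 5 neighbours had no such gap. The highest raw count of *Morn5* was 16, and mutant library 12 had 13.5 normalised counts.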

How the results depend on the processing

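None of the 16 alternatives called any of the 5 tested neighbours. Signs changed to positive for *Ndufa8* (0.024) and *Rbm18* (0.022) within libraries 10 to 13, and when single libraries were left out for *Rbm18* (-0.089 to 0.035) and *Mrrf* (-0.18 to 0.055); *Dab2ip* (0.0014 to 0.11) and *Ttll11* (-0.13 to -0.040) kept theirs throughout. The count of all called genes, 954, was 1731 with DESeq2, 2205 with a covariate for the run (libraries 2, 3 and 5 against 10 to 13), 1922 within libraries 10 to 13 and 302 to 971 with 1 library left out, lowest without mutant library 13 and also over 1.5 times lower without control library 10 (513) or 11 (589) or mutant library 5 (458) or 12 (387). Within 1 Mb of *Lhx6* the count of 0 became 1 with DESeq2, 2 with the run as a covariate and 2 within libraries 10 to 13, and it was 6 within 5 Mb and 8 within 10 Mb; the cause was not tested. Counts in the partner lists stayed within 1.5 times. No scaling tried (TMM, RLE, upper quartile, DESeq2) moved the median of all genes by over 0.1. No paired analysis was possible because the columns carry no replicate number that could be matched to the labels. The *Morn5* test without the filter and the levels by run were chosen after seeing the data. Depth limits *Morn5* above all.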
